A study of Ovis aries with 9 samples.

Results

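The 5′ fragments of tRNA-His-GTG, the tRNA that brings histidine to CAC and CAU codons, were followed in sperm of F1 rams whose mothers had received standard feeding (CON), over feeding (OVER) or restricted feeding (RES) in pregnancy. The fragments were all distinct sequences whose deposited annotation held a term that begins with mature-tRNA-His-GTG and ends with 5_end. They numbered 1247 of 3309646 distinct sequences over the 3 groups and held 676955 of 31431948 reads. Of these, 972 sequences were present in CON, 943 in RES and 668 in OVER. The libraries held 1311597, 1249810 and 1296002 distinct sequences of any kind, in the same order. All rams were labelled wild type, and the labels give neither their age nor whether semen was pooled. Somatic cells of the semen were lysed with SDS and Triton X before sperm RNA was extracted, and small RNA was then size selected and sequenced. The labels list 3 samples per group, but the 3 deposited tables of a group held the same sequences, read counts and genome flags, so each group was counted as 1 library and no test between groups was possible. Intervals in brackets are exact 95% intervals that cover counting error only, and they say nothing of the spread between rams. Values listed without group names are in the order CON, RES, OVER.

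In mature tRNA-His of animals, an extra guanine is joined to the 5′ end after the tRNA has been transcribed and trimmed. The enzyme that adds it is the tRNA-His guanylyltransferase THG1L, and histidyl-tRNA synthetase uses this base, called position -1, to recognise the tRNA. Mature sperm of mammals are rich in 5′ fragments of tRNAs, many of which end in or beside the anticodon loop, where ribonucleases such as angiogenin cut. Such fragments have been studied as carriers of paternal diet effects.

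A sequence joined from overlapping His-GTG reads is shown to place the fragments, with the anticodon in capitals. It was extended from the most abundant fragment by the most frequent next base, and was set to stop at a CCA beyond a set length.
assembled tRNA-His-GTG: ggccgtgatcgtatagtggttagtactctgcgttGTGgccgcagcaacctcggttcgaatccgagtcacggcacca
It has 76 bases, made of the base at position -1, 72 bases, and the CCA that is added to every tRNA. As few as 9 reads stood behind a base of its 3′ portion, and the least agreed base was backed by 60% of the reads there. Of 28 tRNA-His genes with anticodon GUG that RefSeq lists for sheep, 25 span 72 bases. Bases are counted from position 1, the base after the first guanine, and there is no position 0. In this count the 5′ strand of the anticodon stem runs from 27 to 31, the loop from 32 to 38 and the anticodon from 34 to 36.

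The following reads show how the fragments begin, each being the most abundant sequence with that start when levels are summed over the 3 libraries. The base at position -1 is in capitals where there is one.
start -1, guanine: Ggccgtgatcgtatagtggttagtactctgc
start -1, thymine (uracil in the RNA): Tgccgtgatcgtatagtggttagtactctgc
start -1, adenine: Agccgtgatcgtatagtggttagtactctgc
start 1: gccgtgatcgtatagtggttagtactctgc
start 3: cgtgatcgtatagtggttagtactctgc
All 5 end at position 30, inside the anticodon stem. The read with guanine at -1 had 5720 reads per 1000000 reads of the library (RPM) in CON, 5179 in RES and 1894 in OVER. Its counterpart without the extra base, which starts at position 1, had 31601 RPM in CON, 29861 in RES and 14721 in OVER. The shorter form that starts at position 3 had 354 RPM in CON, 291 in RES and 726 in OVER. The read that starts at 1 was thus the most abundant in every library, and only the start at 3 was highest in OVER. With start -1, however, a 33-nt sequence that ends at position 32 had 2000 RPM in OVER, more than the 31-nt read shown.

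The 5_end term turned out to cover reads that start at position -1 and not those that start at position 1. Starts were found by a stretch of 15 bases, bases 8 to 22 of the most abundant fragment, which was present in 99.1% of fragment reads in CON, 99.1% in RES and 98.5% in OVER. Every fragment read with this stretch started at -1. Every annotated read with the stretch that started at position 1 carried the plain name mature-tRNA-His-GTG without 5_end. The fragments defined by the term were 35.9% of all reads named His-GTG in CON (35.8 to 36.1), 33.1% in RES (33.04 to 33.24) and 28.9% in OVER (28.8 to 29.1). The larger portion of tRNA-His 5′ reads therefore lies outside the annotated term, and both sets are given below.

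The annotated fragments amounted to 27348 RPM in CON, 22740 RPM in RES and 12628 RPM in OVER, or 2.74%, 2.27% and 1.26% of all reads. OVER was lowest and CON highest. The level in OVER was 2.17-fold lower than in CON, a log2 ratio of -1.11 (-1.13 to -1.10), and 1.80-fold lower than in RES (log2 -0.85, -0.86 to -0.84). RES was 1.20-fold lower than CON (log2 -0.27, -0.27 to -0.26). These ratios depend on what the reads are divided by. The OVER library held many more reads of 15 to 20 nt, 29.6% against 5.98% in CON and 10.3% in RES, and fewer nuclear tRNA reads, 121597 RPM against 258677 and 168293. As a share of nuclear tRNA reads the fragments were nearly level, at 10.6% in CON and 10.4% in OVER, and were 13.5% in RES. Among reads of 25 to 40 nt alone, the OVER to CON log2 ratio turned to 0.14. The composition of the fragments, described below, is a share within them and does not depend on that choice.

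The reads were concentrated in few sequences that all libraries shared. Of the 1247 sequences, 485 were present in all 3 libraries, and they held 99.4% of fragment reads in CON, 99.6% in RES and 99.6% in OVER. Fragment sequences with only 1 read numbered 271 in CON, 254 in RES and 234 in OVER. The overlap of all distinct sequences between the libraries was not computed. The 8 most abundant sequences held 81.7%, 83.6% and 81.2%. No fragment sequence carried the name of another RNA. Fragments with no mismatch to the assembled tRNA made up 89.6% of reads in CON, 89.8% in RES and 86.1% in OVER, and those with more than 1 mismatch were no more than 22 reads in a library.

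Folds were counted only for sequences whose 2 libraries together gave 100 reads or more. For OVER against CON, 79 of the 1247 fragment sequences reached that depth, 47 of them at least 2-fold lower in RPM in OVER and 10 at least 2-fold higher. Among all distinct sequences of that depth, 34.7% were at least 2-fold lower and 34.5% at least 2-fold higher. For RES against CON, 95 fragment sequences reached it, 16 lower and 2 higher in RES, beside 13.9% and 26.8% of all sequences. For OVER against RES, 75 reached it, 40 lower and 10 higher in OVER, beside 37.8% and 25.4% of all sequences. Fragment sequences share their source and are not independent, and the counts describe these libraries.

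With every start counted, tRNA-His 5′ reads amounted to 75947 RPM in CON, 68105 in RES and 42405 in OVER. Reads that start at position 1 made up 62.1% of them in CON, 65.0% in RES and 66.2% in OVER. Reads with the extra base at -1 made up 36.3% in CON (36.1 to 36.4), 33.4% in RES (33.3 to 33.5) and 29.6% in OVER (29.4 to 29.7). For every 100 reads that start at position 1 there were 58.4 reads with the extra base in CON, 51.4 in RES and 44.7 in OVER. The extra base was thus least frequent in OVER, where the log2 ratio to CON was -1.13 for reads that start at -1 and -0.75 for reads that start at 1.

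Reads that start at position 3 went the other way. They lack the first 2 bases of the encoded tRNA and had 678 RPM in CON, 617 in RES and 1357 in OVER, 2.002-fold higher in OVER than in CON (log2 1.001, 0.96 to 1.05). Their share of all tRNA-His 5′ reads was 0.892% in CON, 0.907% in RES and 3.20% in OVER. Reads that start at position 4 were rarer, with 11.6, 9.12 and 39.7 RPM, and were also highest in OVER. Reads that start at position 2 had 547 RPM in CON, 415 in RES and 396 in OVER, so not every start after position 1 was highest in OVER. Reads with a further base before the extra one were scarce, 154 reads in CON, 217 in RES and 60 in OVER. Of these, 127, 174 and 49 began with CG.

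**Figure D1:**
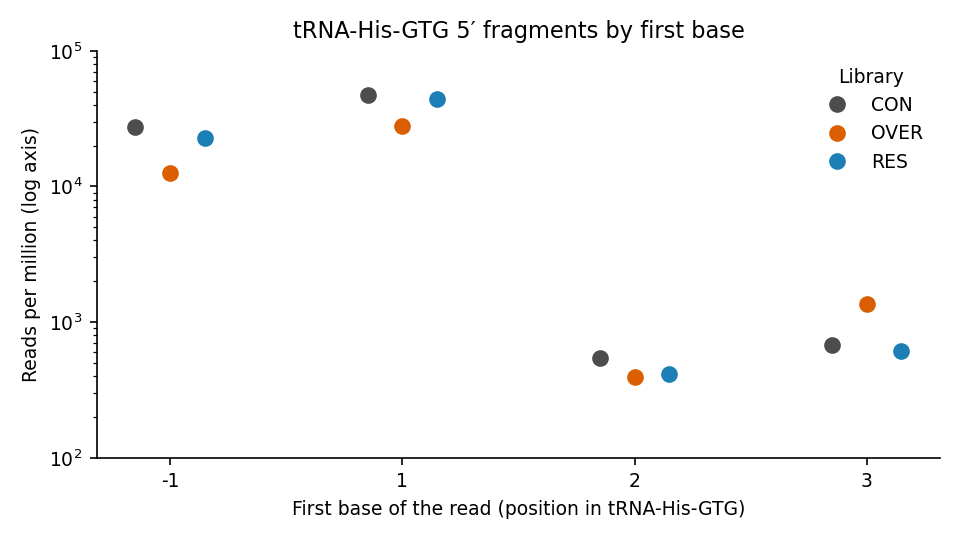
RPM (log axis) of tRNA-His-GTG 5′ reads by the position of their first base, with 1 point for each of the CON, OVER and RES libraries. OVER is the lowest point at -1, 1 and 2 and the highest at 3, where it had 1357 RPM against 678 in CON.

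The extra base was nearly always guanine, the base that the guanylyltransferase adds. Guanine stood at -1 in 96.6% of reads with that start in CON (96.5 to 96.6), 96.2% in RES (96.1 to 96.3) and 93.2% in OVER (93.02 to 93.33). Thymine stood there in 1.99% in CON (1.94 to 2.04), 2.19% in RES (2.13 to 2.24) and 4.74% in OVER (4.61 to 4.87). Adenine followed with 1.30%, 1.47% and 1.92%, and cytosine with 0.136%, 0.156% and 0.161%. Thymine and adenine thus took larger shares in OVER, with intervals apart from those of CON and RES, while the intervals for cytosine overlapped. In RPM, reads with guanine at -1 were 2.28-fold lower in OVER than in CON (26592 and 11686), whereas reads with thymine were nearly level, at 547 in CON, 497 in RES and 595 in OVER. The log2 ratio of OVER to CON was -1.19 for guanine, -0.57 for adenine and 0.12 (0.06 to 0.18) for thymine. These ratios are over all reads and were not computed by base for other library sizes. Over nuclear tRNA reads, the ratio of the 31-nt sequence went from -0.87 to 0.22 with thymine and from -1.59 to -0.51 with guanine.

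**Figure D2:**
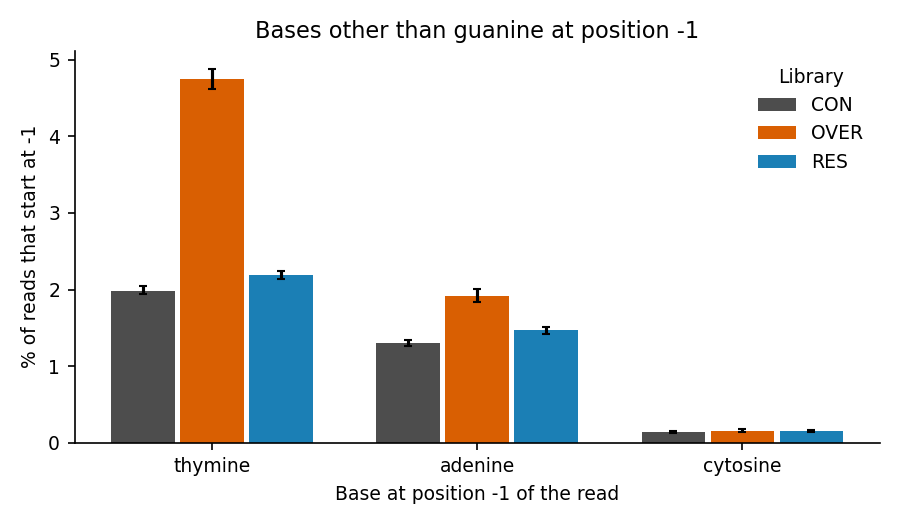
Share of reads that start at position -1 whose base there is thymine, adenine or cytosine, in percent, with exact 95% counting intervals as error bars, for the CON, OVER and RES libraries. Thymine reaches 4.74% in OVER against 1.99% in CON and 2.19% in RES.

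Reads with another base at -1 also ended differently. The end at position 30 was found in 22.8% of reads with guanine at -1 in CON, 47.3% of reads with thymine and 63.7% of reads with adenine. In OVER the same shares were 17.1%, 23.3% and 41.8%, and in RES 25.1%, 51.9% and 62.99%. The order of the 3 bases was the same in all libraries, with adenine highest and guanine lowest. Reads that start at position 1 ended at 30 more often than any of them, in 70.2% in CON, 70.7% in RES and 55.0% in OVER.

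Whether the base at -1 is written in the genome beside the gene can be read in part from the deposited genome flag. Without any change at position 6, 99.4% of 16245 reads with thymine at -1 matched the genome over the 3 libraries. So did 99.5% of 9591 with adenine and 99.7% of 964 with cytosine. Reads with guanine at -1 matched in 96.5% of 627213 reads, so the flag does not separate an added guanine from one that some gene copy encodes. A variant of the tRNA with adenine in place of guanine at position 6, G6A, made this separable. It is shown with the changed base in capitals.
G6A, start -1: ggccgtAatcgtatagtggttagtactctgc
G6A was carried by 3.08% of reads that start at -1 in CON, 3.17% in RES and 2.97% in OVER, and by 2.82%, 2.97% and 2.94% of those that start at 1. The next most frequent change was G6C, at most 0.451% of reads that start at -1 and 0.461% of those that start at 1. The median over positions lay between 0.0481% and 0.0559% with start -1 and between 0.0433% and 0.0506% with start 1. G6A reads that start at position 1 matched the genome in 98.9% in CON, 99.3% in RES and 98.5% in OVER. With guanine at -1, 0 of 20334 G6A reads did, while 97.2% of 527 G6A reads with thymine at -1 and 79.8% of 252 with adenine did. All 26 G6A reads with cytosine at -1 matched too. In the genome that the submitters used, the G6A form was thus found behind each of the other bases and not behind guanine. Multigene copies of tRNA-His cannot be told apart by these reads beyond such changes.

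At the other end, the annotated fragments ranged from 15 to 42 nt, with mean lengths of 31.4 nt in CON, 30.9 nt in RES and 31.1 nt in OVER. The commonest length was 31 nt in CON, with 23.99% of fragment reads (23.8 to 24.2), and 31 nt in RES, with 26.2% (26.04 to 26.36). In OVER it was 33 nt, with 18.6%, followed by 31 nt with 17.7% (17.5 to 18.0). Fragments of 33 nt were only 2.82% of fragment reads in CON and 0.850% in RES. Their 3′ end lies at position 32, the first base of the anticodon loop. At the long end, fragments of 36 nt or more made up 8.54% in CON and 6.07% in RES but 1.05% in OVER. Those of 20 nt or less were rare, 0.0886%, 0.186% and 0.655%, far below the share that such reads held of the whole libraries.

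The sequences behind these lengths extend the same 5′ end by a few bases, and the bases after position 30 are in capitals.
31 nt: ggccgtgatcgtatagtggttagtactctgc
32 nt: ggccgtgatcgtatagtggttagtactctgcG
33 nt: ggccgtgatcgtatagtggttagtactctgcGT
34 nt: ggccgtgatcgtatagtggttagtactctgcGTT
35 nt: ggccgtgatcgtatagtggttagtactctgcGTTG
37 nt: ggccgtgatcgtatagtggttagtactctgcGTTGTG
The 33-nt sequence, cut after the first loop base, had 685 RPM in CON, 170 in RES and 2000 in OVER. Its level in OVER exceeded that in CON 2.92-fold (log2 1.55, 1.505 to 1.586) and that in RES 11.8-fold. Its level in RES was 4.03-fold below that in CON (log2 -2.01). Of the 15 sequences with a mean of at least 100 RPM, 12 were at least 2-fold lower in OVER than in CON, and the 33-nt sequence was the only one that was at least 2-fold higher. Shares over all distinct sequences at this mean level were not computed. With 100 reads or more they were 34.7% lower and 34.5% higher. Over nuclear tRNA reads, and likewise among reads of 25 to 40 nt, 3 of the 15 were at least 2-fold lower (30, 36 and 37 nt) and 2 at least 2-fold higher (32 and 33 nt). The 32-nt sequence, cut after the last stem base, had 1318 RPM in CON, 1490 in RES and 1763 in OVER, a log2 ratio of OVER to CON of 0.42 that became 1.51 over nuclear tRNA reads. The 34-nt sequence, 1 base longer than the one that was highest in OVER, had 3865 RPM in CON, 3698 in RES and 1337 in OVER. These adjacent cut sites thus differed between libraries in different directions.

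The longer forms reach into the anticodon. The 37-nt sequence, which ends with the last base of the anticodon, had 1760 RPM in CON, 1053 in RES and 85.8 in OVER, and was 20.5-fold lower in OVER than in CON (log2 -4.36, -4.47 to -4.25). The 35-nt sequence, which ends with the first base of the anticodon, had 2058 RPM in CON, 720 in RES and 572 in OVER. Its log2 ratios to CON were -1.85 for OVER and -1.51 for RES, the closest pair among the forms of 34 to 37 nt. The 36-nt sequence had 218 RPM in CON, 113 in RES and 28.1 in OVER. Among the shorter forms, the 30-nt sequence, cut after position 29, had 2713 RPM in CON, 1822 in RES and 499 in OVER, 5.43-fold lower in OVER than in CON (log2 -2.44). The 28-nt sequence had 2183, 1966 and 869 RPM. The 27-nt sequence had 2713 RPM in CON, 3069 in RES and 1314 in OVER, and with the 26-nt sequence (429, 470 and 185 RPM) was slightly higher in RES than in CON.

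**Figure D3:**
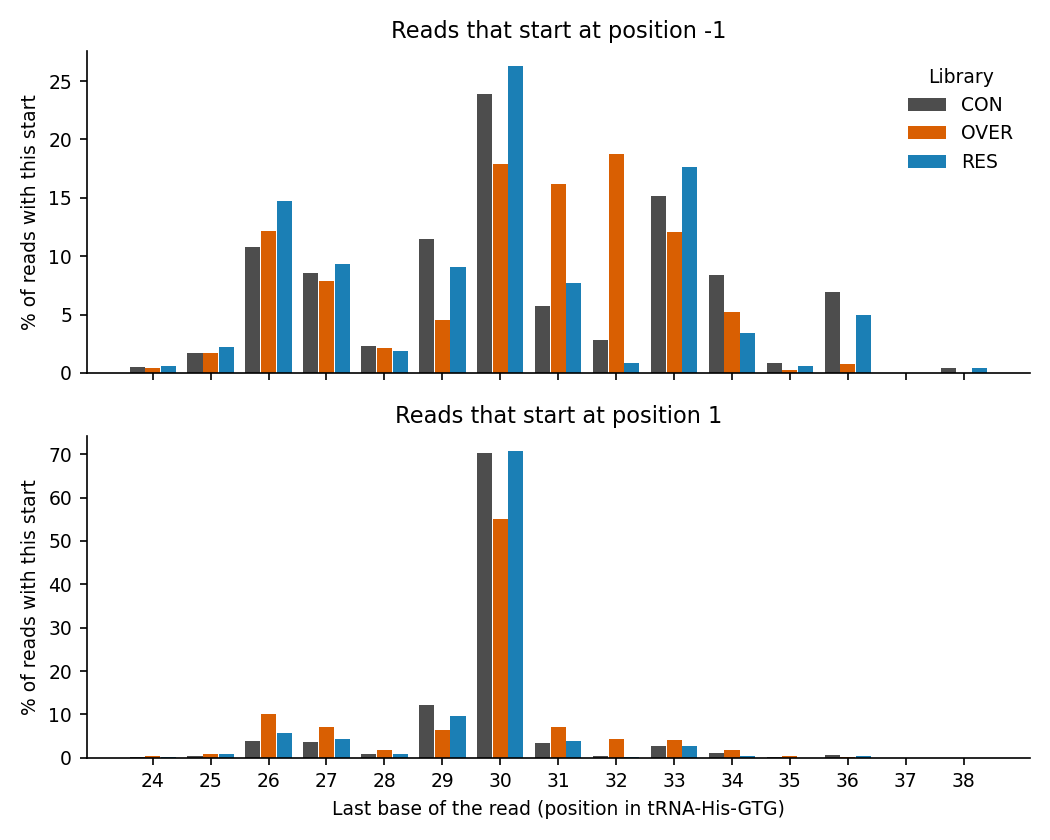
Share of reads, in percent, by the position of their last base, for tRNA-His-GTG reads that start at position -1 (upper panel) and at position 1 (lower panel) in the CON, OVER and RES libraries. Reads that start at 1 are gathered at position 30 (70.2% in CON), whereas those that start at -1 are spread over several ends and peak at 32 in OVER (18.7%).

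The 3′ ends differed between the 2 starts within each library. Among reads that start at 1, 90.3% ended in the 5′ strand of the anticodon stem in CON, 89.4% in RES and 77.8% in OVER, and 4.95%, 3.64% and 10.6% ended in the loop. Among reads with the extra base, 52.0%, 54.2% and 48.6% ended in the stem and 34.7%, 27.8% and 37.03% in the loop. Reads with a base at -1 thus reached into the loop more often in all 3 libraries. Position 29 gave 3162 RPM in CON, 2055 in RES and 574 in OVER for reads that start at -1, and 5714, 4271 and 1831 RPM for those that start at 1.

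The difference from CON along the 3′ end was compared between reads with either start. Over the 13 ends from 24 to 36, the OVER to CON ratio had the same sign with both starts at 7 ends and opposite signs at 6. The RES to CON ratio had opposite signs at 2, positions 27 and 33. These signs were counted with all reads as the library size only, and another library size can change them. The gap between the 2 starts at an end does not depend on the library size. For reads that end at position 32, the log2 ratio of OVER to CON was 1.60 (1.57 to 1.64) with start -1 and 2.39 (2.32 to 2.46) with start 1, and that of RES to CON was -1.99 with both. In RPM, reads that start at 1 and end at 32 had 231 in CON, 58.3 in RES and 1213 in OVER. At position 36 the log2 ratio of OVER to CON was -4.40 with start -1 (1919 and 90.9 RPM) and -2.57 with start 1 (256 and 43.1 RPM). The 6 ends with opposite signs for OVER were 24 to 28 and 35, where OVER was higher than CON with start 1 and lower with start -1. At position 26 OVER and CON had 2852 and 1836 RPM with start 1 and 1519 and 2966 RPM with start -1. The main sequence behind the latter, the 27-nt one, had a log2 ratio of OVER to CON of -1.05 over all reads and 0.043 over nuclear tRNA reads. At position 33 the log2 ratio was -1.47 with start -1 and -0.11 with start 1. Summed over positions 31 and 32, on both sides of the stem and loop border, the share of ends among reads that start at -1 was 8.54% in CON, 8.57% in RES and 34.9% in OVER.

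**Figure D4:**
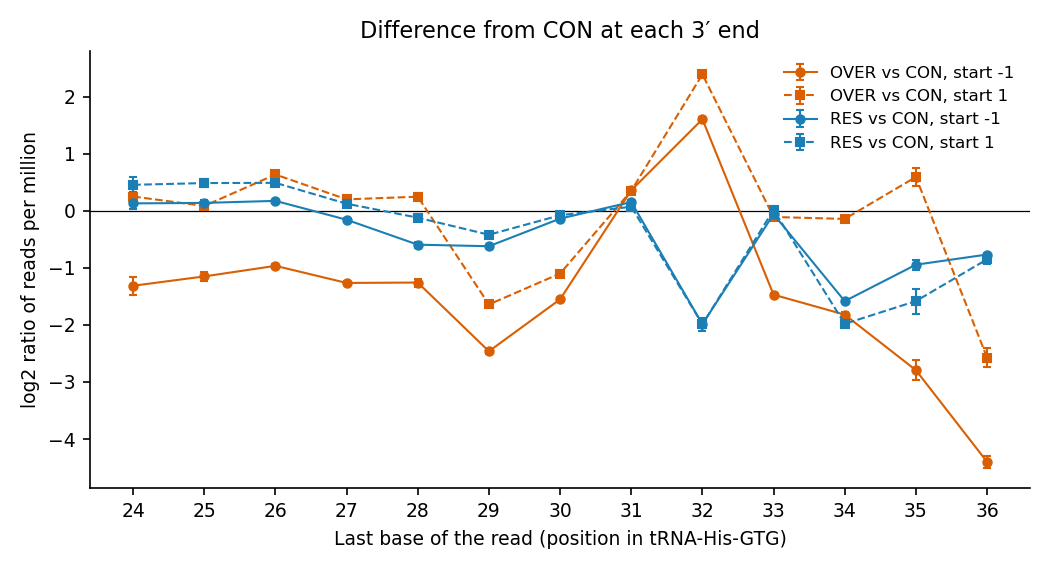
Log2 ratio of RPM to CON at each 3′ end position from 24 to 36, for the OVER and RES libraries and for reads that start at -1 (circles) or 1 (squares), with exact 95% counting intervals as error bars. Position 32 is the highest point for OVER (1.60 and 2.39), whereas RES stands at -1.99 there with both starts.

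Few fragments carried a last base that differs from the assembled tRNA. Such a base was found in 1.71% of reads that start at -1 in CON (1.66 to 1.75), 1.48% in RES (1.44 to 1.53) and 2.53% in OVER (2.44 to 2.63). A last cytosine accounted for 0.599%, 0.474% and 1.65% of reads. Among reads that start at position 1 the shares were lower, 0.749%, 0.692% and 1.11%. A last adenine was nearly level in reads that start at -1, at 0.627%, 0.650% and 0.653%, so the larger share in OVER came with cytosine.

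Next to the 5′ ends of other nuclear tRNAs, tRNA-His was among the highest. With at least 100 reads in every library, 34 nuclear tRNA names with a 5_end term could be compared, a read with several names being counted for each. By the 5_end term alone, tRNA-His ranked 6 in CON, 3 in RES and 5 in OVER. In CON it stood between tRNA-Gly-TCC (29292 RPM) and tRNA-Val-AAC (7916 RPM). With every start counted for tRNA-His and the 5_end term alone for the 33 others, 2 of them had higher values in CON, up to 98455 RPM for tRNA-Glu-CTC. In OVER the highest of the others was tRNA-Gly-GCC with 31348 RPM, and in RES it was tRNA-Glu-TTC with 48835 RPM, beside 42405 and 68105 RPM for tRNA-His. These are unlike counts and give no rank. Whether the 5_end term leaves out reads of other tRNAs too was not tested.

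The ratio of OVER to CON placed tRNA-His among the lower 5′ ends. The median log2 ratio of the 34 names was 0.18, with 14 lower and 20 higher in OVER, and 9 lay below the -1.11 of tRNA-His. Names of the same amino acid can share reads, so the 34 are not independent values. For RES against CON the median was -0.42, and for OVER against RES 0.36. A wider set held the tRNA 5′ ends with at least 100 reads in the 2 compared libraries together, 54 for OVER against CON. Of these, 24.1% were at least 2-fold lower and 31.5% at least 2-fold higher in OVER than in CON. For RES against CON the shares were 18.8% and 2.08% of 48, and for OVER against RES 15.1% and 39.6% of 53. tRNA-His was past 2-fold only for OVER against CON.

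The 5′ ends with the nearest pair of log2 ratios to CON were tRNA-SeC-TCA, the selenocysteine tRNA, at -1.09 for OVER and -0.87 for RES, tRNA-Asp-ATC at -1.79 and -0.28, and tRNA-Gln-TTG at -1.45 and -1.11. By length, the most similar was tRNA-Lys-CTT, which shared 47.0% of the area of its length profile with tRNA-His averaged over the 3 libraries, followed by tRNA-iMet-CAT with 38.1% and tRNA-Gly-GCC with 32.1%. A longer commonest length in OVER than in CON, as for the annotated tRNA-His fragments, was found in 9 of the 34 names. A shorter length was found in 11 and the same length in 14. The annotated tRNA-His fragments are those that start at -1. The tRNA-His reads that start at position 1 had a commonest length of 30 nt in all 3 libraries. tRNA-Glu-TTC went from 30 nt in CON to 33 nt in OVER and tRNA-Gly-GCC from 30 nt to 31 nt, both with large read numbers. The mean length of the tRNA-His fragments lay above the median of the 34 names, 27.8 nt in CON, 25.7 nt in RES and 24.2 nt in OVER.

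**Figure D5:**
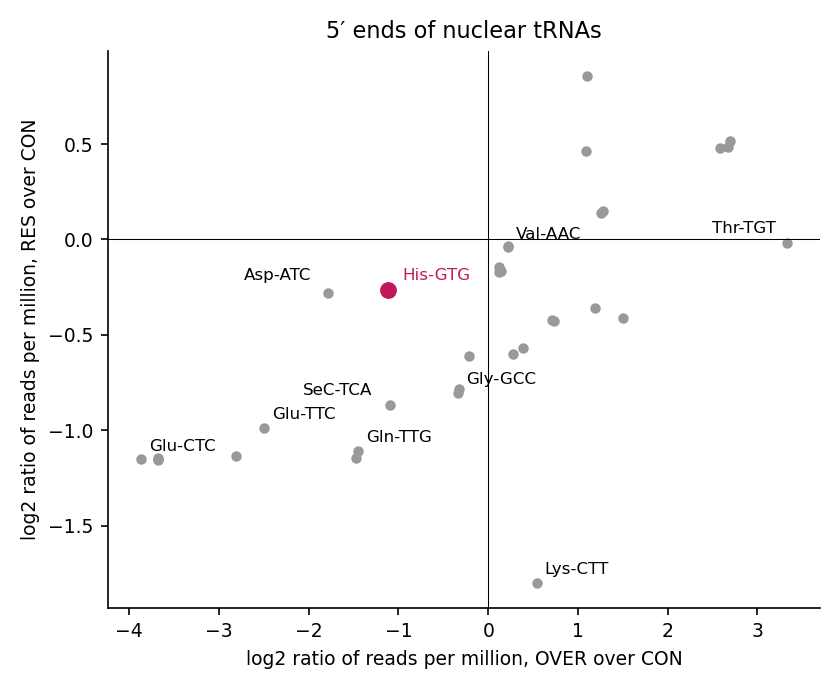
Log2 ratio of RPM of OVER to CON (horizontal) and of RES to CON (vertical) for the 5′ ends of 34 nuclear tRNAs, each 1 point, with tRNA-His-GTG in red. It lies at -1.11 and -0.27, with 9 of the 34 points below it along the horizontal axis and 20 along the vertical axis.

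Reads of tRNA-His from outside the 5′ end were few by comparison. Exact matches that start at position 5 or later had 165 RPM in CON, 365 in RES and 972 in OVER. Their commonest start was position 13, in the D arm, with 52.9, 108 and 491 RPM, and their mean length was 22.8 nt in CON, 21.2 nt in RES and 19.96 nt in OVER. These internal reads were highest in OVER, where reads of 15 to 20 nt were also most frequent in the whole library, and the part of the latter in this was not tested. Reads annotated as ending in CCA numbered 6 in CON, 5 in RES and 3 in OVER, so the 3′ portion of the tRNA was barely seen. The mitochondrial tRNA-His, a separate gene, had 2.20, 5.17 and 4.59 RPM.

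The libraries behind these values held 9983895 reads in CON, 13160116 in RES and 8287937 in OVER, with reads of 15 to 42 nt. A count of 0 allows a level of up to 0.300, 0.228 and 0.362 RPM. The sperm label could be checked only in part. Of the marker miRNAs fixed for other cells, the epithelial miR-200a had 161 RPM in CON, 66.8 in RES and 423 in OVER, with miR-200b (132, 32.6 and 326 RPM) and miR-200c (171, 34.5 and 344 RPM) in the same order. No annotation named the germ cell or blood cell marker miRNAs, so they were not analysed here. The miR-200 reads were thus highest where the tRNA-His fragments were lowest, and their part in the result was not tested.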

How the data were processed

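Small RNA of ram sperm was sequenced from NEBNext libraries on an Illumina NovaSeq, per the labels. Each deposited table lists distinct sequences with length, read count, genome flag and annotation, and the counts are raw whole numbers, per the file headers. edgeR is named in the submitters' processing notes. Which aligner, annotation tool and genome were used is not given in the sources used here. All 3 tables of each group held the same counts (annotation terms differed in 0 to 3 sequences) and were used as 1 library, so the planned edgeR test was replaced by ratios.

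The fragments and lists were chosen with earlier results of these data known. RPM was computed over all reads of a library. Intervals are exact Clopper-Pearson for shares and exact binomial for ratios of 2 counts, and 3 reads stood in for a count of 0 in ratios. Starts were placed with a 15-nt stretch taken from the most abundant fragment. Substitutions were counted in reads of at least 22 nt, with at most 2 mismatches and without the last 3 bases. Sequences were named by rule: the 8 most abundant, the leading sequence of each start with at least 1% of reads, and the 3 highest and 3 lowest ratios among 15 sequences with a mean of at least 100 RPM. The reads that start at position 1, the forms with thymine or adenine at -1 and the G6A form were added after the values were seen. tRNA-His genes were counted in RefSeq's ARS-UI_Ramb_v3.0 annotation. The ratio code was tested on simulated data. Alternatives used other library sizes (edgeR 4.0.16 TMM and DESeq2 1.42.0 size factors in R 4.3.3, annotated reads, nuclear tRNA reads), reads of 25 to 40 nt, and filters by depth or genome match. Python 3.11.15, pandas 2.3.3, numpy 2.4.6 and scipy 1.17.1 were used.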

Additional observations from a re-analysis of the deposited data

How the results depend on the processing

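No paired analysis was possible because the 3 tables of each group held the same reads, and leaving out replicates was not run for the same reason. For the annotated fragments, the log2 ratio of OVER to CON, -1.11 over all reads, was -1.22 with TMM factors, -1.58 with DESeq2 size factors, -1.24 over annotated reads, -0.026 over nuclear tRNA reads, 0.14 among reads of 25 to 40 nt and -0.84 for all reads with the 15-nt stretch. In the same order RES to CON, -0.27, was 0.0040, 0.13, -0.50, 0.35, -0.036 and -0.16, and OVER to RES, -0.85, was -1.23, -1.70, -0.74, -0.38, 0.18 and -0.68. Genome-matching sequences alone gave -0.26 for RES to CON and -0.86 for OVER to RES. The direction thus rests on the library size used, and the cause was not tested. For reads that start at position 1, an alternative set added after the data were seen, OVER to CON turned to 0.34 over nuclear tRNA reads and 0.51 at 25 to 40 nt.

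In the order CON, RES, OVER, the share of fragment reads placed at start -1 (99.1%, 99.1% and 98.5%) was 99.4%, 99.4% and 98.9% with at least 10 reads per sequence, 99.9%, 99.8% and 99.3% for genome-matching sequences, and 36.3%, 33.4% and 29.6% for all reads with the stretch. The share of 31 nt (23.99%, 26.2% and 17.7%) was 24.3%, 26.4% and 18.1% for genome-matching sequences and 10.8%, 11.3% and 10.1% for all reads with the stretch. The number of tRNA 5′ ends at least 2-fold apart between RES and CON, 10, was 16 at a minimum of 10 reads and 4 with TMM factors. Of the values for named single sequences under alternatives, 172 moved beyond counting error, 5 did not, and 3 that were past 2-fold turned sign. The 27-nt sequence for OVER to CON was 0.043 over nuclear tRNA reads and 0.22 at 25 to 40 nt, and the 26-nt sequence 0.050 at 25 to 40 nt. Among the 15 sequences with a mean of at least 100 RPM, 12 were at least 2-fold lower in OVER than in CON over all reads, with TMM factors and over annotated reads, 13 with DESeq2 size factors, and 3 over nuclear tRNA reads or at 25 to 40 nt. Over all sizes of the ratio, 1 of the 15 turned sign with DESeq2 size factors (32 nt, 0.42 to -0.041), 2 over nuclear tRNA reads and 4 at 25 to 40 nt. For RES to CON, 4 to 7 of the 15 turned sign. These counts were added after the data were seen, and shares over all distinct sequences at this mean level were not computed. Counting intervals are narrow at this depth, but the spread between rams is unknown.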
